A study of Rattus norvegicus with 6 samples.

Results

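Mitotic spindle-associated proteins were followed here as a set of 10 named genes: *Tpx2*, *Nusap1*, *Spag5*, *Ckap2*, *Ckap2l*, *Ckap5*, *Knstrn*, *Hmmr*, *Dlgap5* and *Aspm*. A gene was a member when its symbol was the gene name of a non-control spot of the array. This found 8 of the 10 genes among 36174 distinct gene names, with 10 oligonucleotides on 14 spots. *Ckap2l* and *Ckap5* were not found by that rule and are described separately below. The rule itself reads names only, but the genes were listed with earlier results of these arrays known.

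Gene expression was measured in β-cells of male Wistar rats, sorted from 3 islet preparations of 4 pooled rats each. Islets had been cultured overnight with EdU, a thymidine analogue that is built into newly made DNA, then dispersed, stained with the zinc dye Newport Green and fixed in paraformaldehyde. Replicating β-cells were large, granular, Newport Green positive and EdU positive, and quiescent β-cells passed the same gates but were EdU negative. Each preparation gave 1 array of each kind, and the RNA of every sample was amplified as cDNA before Cy3 labelling and hybridization to an Agilent rat array. The EdU label marks cells that had synthesized DNA during the culture, so the replicating fraction may hold cells from S phase to after division. The comparison asked which transcripts differed between β-cells that had replicated their DNA and those that had not. The samples are bulk fractions, in which fewer cells with a transcript and less of it per cell cannot be told apart.

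The spindle is the array of microtubules that separates the chromosomes in mitosis. Part of its microtubules are made around the chromosomes, where the GTPase Ran releases spindle assembly factors such as Tpx2, Hurp (encoded by *Dlgap5*) and Nusap1 from importins. Other proteins hold microtubules at the kinetochores, as the complex of astrin (encoded by *Spag5*) and Skap (encoded by *Knstrn*) does, or focus and anchor them at the poles, as Aspm does. Transcripts of many of these genes build up towards G2 and M and are low in resting cells, and adult β-cells divide rarely.

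Arrays carry oligonucleotides of 60 bases as probes. The first 30 bases, 5′ to 3′ as the array files give them, are shown for the genes with the largest ratios and for the genes whose oligonucleotides differed from each other. They are in lower case throughout, since no motif is marked in them.
*Knstrn*: agctaagtttatgaacttgaaatccttgaa
*Spag5*: cccttatcccaataataaaccaattggcat
*Ckap2*, brighter: gtccttagcaccacaagaaaaactactttg
*Ckap2*, dimmer: gcagagattattcactgaaaaagtaaacaa
*Dlgap5*, brighter: ctgtacaaaccctgtaggttatttaaaata
*Dlgap5*, dimmer: gagctgtcccagtcagtactgctacataaa
The array files place these oligonucleotides on the rat build rn4. The *Knstrn* oligonucleotide lies at chr3:105341867-105341926 on the plus strand and that of *Spag5* at chr10:64313163-64313222 on the minus strand. The brighter *Ckap2* oligonucleotide lies at chr16:74518663-74518722 and the dimmer at chr16:74503203-74503262, both on the plus strand. For *Dlgap5* the brighter lies at chr15:23340953-23341012, and the dimmer spans 1036 genomic bases at chr15:23342393-23343428, both on the minus strand. The brighter of the *Dlgap5* pair was designed on the transcript model XM_006251794 and the dimmer on NM_001135802. Whether a stretch lies in coding sequence or a UTR was not analysed here.

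All 8 member genes were higher in replicating than in quiescent β-cells. The fitted log2 ratios ran from 3.38 for *Ckap2* (brighter oligonucleotide) to 5.56 for *Knstrn*. Their median was 3.89, against a median of -0.07 over all 45598 probes. In preparations 1, 2 and 3 the median of the members was 4.02, 4.01 and 4.06. Each member was called higher at the thresholds of the study (unadjusted p of at most 0.05 and a log2 ratio of at least 1) in limma with the preparation as a block, as were all 10 oligonucleotides. The unadjusted p of the 10 oligonucleotides ran from 2.31e-05 to 0.00257. Of all probes, 2023 or 4.44% were called higher and 1905 lower at these thresholds. The study reported more genes in each direction at the same thresholds, and the cause of this gap was not tested. All 3 replicating arrays lay above all 3 quiescent arrays for each of the 10 oligonucleotides, which held for 8.82% of all probes. The ratio was above 0 in every preparation for the 8 members, and for 15.3% of all probes. After Benjamini-Hochberg adjustment over all probes in limma, 0 members and 0% of probes had an adjusted p under 0.05. The smallest adjusted p was 0.0977, and 4386 probes had an unadjusted p of at most 0.05. With 3 pairs of arrays an exact permutation of signs cannot give a two-sided p below 0.25.

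**Figure D1:**
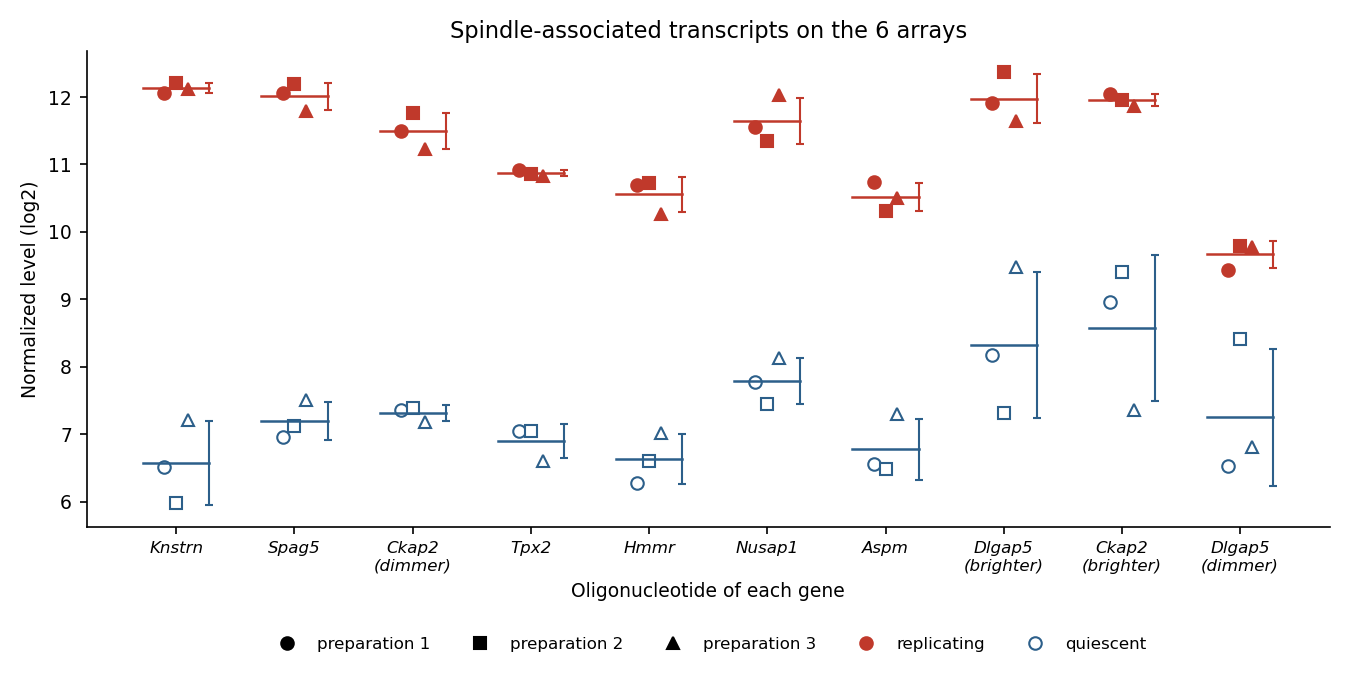
Normalized log2 level (y axis) of each member oligonucleotide (x axis, ordered by fitted ratio) on the 6 arrays. Filled red symbols are replicating and open blue symbols quiescent β-cells, the symbol's shape gives the islet preparation, and the lines with bars are the group mean and SD over 3 arrays. In each of the 10 columns the red symbols lie above all blue ones, and the gap is narrowest for the dimmer *Dlgap5* oligonucleotide. Heights are compared within a column only, because oligonucleotides differ in how strongly they hybridize.

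The arrays themselves differed in quality. Pearson's r across probes was between 0.967 and 0.986 among the replicating arrays, and 0.83, 0.867 and 0.654 among the quiescent ones, where the lowest value was for preparations 2 and 3. The arrays did not group by condition over all probes: the quiescent array of preparation 3 had an r of 0.964, 0.943 and 0.969 with the replicating arrays of preparations 1, 2 and 3, and that of preparation 1 was also closer to each of these (0.869 to 0.887) than to that of preparation 2. The quiescent array of preparation 2 also had the most spots marked as outliers, 1583 against 252 to 299 on the other 5 arrays. No member spot was marked as an outlier or saturated, and all were well above background on all 6 arrays. Their raw mean signals were between 503.5 and 6751 in replicating and between 52.27 and 844.8 in quiescent β-cells, over local backgrounds of 20 to 30. Because the quiescent array of preparation 2 stands apart, each ratio is also given within each preparation. Without preparation 2 all 8 members were still called higher, at a median of 3.83 on the log2 scale. In that fit 7 members, and 84 of all 45598 probes, had a limma adjusted p under 0.05. Without preparation 1 or without preparation 3, 0 members and 0 probes had one.

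The astrin and Skap pair had the largest ratios of the set. *Knstrn*, which encodes Skap, a protein of kinetochores and microtubule plus ends that binds astrin, had log2 levels of 12.06, 12.21 and 12.12 in replicating β-cells of preparations 1, 2 and 3. Its levels in quiescent β-cells were 6.52, 5.98 and 7.22. The replicating arrays were nearly equal and the quiescent ones more spread, and the groups did not overlap. The fitted ratio was 5.56 ± 0.385 (SE), a 47.1-fold difference (limma adjusted p = 0.0977), and only 1 of the 45598 probes had a higher one. The size depends on the background handling: it was 6.31 with a smaller normexp offset of 16 and 6.87 with the scanner software's processed signal. *Spag5*, which encodes astrin, a protein needed for the attachment of chromosomes to the spindle and for intact poles, had log2 levels of 12.06, 12.19 and 11.79 in replicating and 6.96, 7.12 and 7.52 in quiescent β-cells. Again the lowest replicating array was far above the highest quiescent array, by 4.28. The fitted ratio was 4.81 ± 0.345 (SE), or 28.1-fold (limma adjusted p = 0.0977). The preparations of *Knstrn* gave ratios of 5.54, 6.23 and 4.90, and those of *Spag5* 5.09, 5.07 and 4.28, so both ratios were lowest in preparation 3.

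*Tpx2* is first among the factors that Ran releases. Its protein starts microtubules near chromosomes and activates the kinase Aurora A on the spindle. Its log2 levels were 10.92, 10.85 and 10.83 in replicating and 7.04, 7.06 and 6.61 in quiescent β-cells. The replicating levels had an SD of 0.043, the smallest of the 10 oligonucleotides, and the groups were far apart. The fitted ratio was 3.97 ± 0.312 (SE), or 15.6-fold (limma adjusted p = 0.0977), and 4.69 with the processed signal. *Nusap1*, whose protein bundles microtubules and ties them to chromatin, had log2 levels of 11.56, 11.35 and 12.03 in replicating and 7.78, 7.45 and 8.13 in quiescent β-cells. Both groups were ordered alike over the preparations, with preparation 3 highest and preparation 2 lowest. The ratios of the preparations therefore lay close together at 3.78, 3.90 and 3.89, around a fitted ratio of 3.86 ± 0.302 (SE), or 14.5-fold (limma adjusted p = 0.0977).

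*Dlgap5* had the widest spread between preparations. Its protein, Hurp, stabilizes the bundles of microtubules that end at kinetochores. The brighter of its oligonucleotides had log2 levels of 11.91, 12.37 and 11.65 in replicating and 8.18, 7.32 and 9.48 in quiescent β-cells. The quiescent arrays were the more spread, with preparation 3 far above preparation 2, and still the groups did not overlap. The ratios of the preparations were 3.73, 5.04 and 2.17, and the fitted ratio was 3.65 ± 0.599 (SE), or 12.5-fold (limma adjusted p = 0.315). Without preparation 2 it was 2.95, and without preparation 3 it was 4.38. The dimmer oligonucleotide had log2 levels of 9.44, 9.79 and 9.77 in replicating and 6.53, 8.42 and 6.81 in quiescent β-cells. Here it was the quiescent array of preparation 2 that was high, the one that was lowest with the brighter oligonucleotide. Its fitted ratio was 2.42 ± 0.443 (SE), or 5.34-fold, from 2.91, 1.38 and 2.96 in the preparations (limma adjusted p = 0.398). In preparation 2 its raw mean signal was 503.5 in replicating and 554.1 in quiescent β-cells, so before normalization that pair went the other way. Both oligonucleotides were called higher, but they did not order the quiescent arrays alike.

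*Hmmr* encodes a hyaluronan receptor that also binds microtubules and acts at the centrosomes and spindle poles. Its log2 levels were 10.69, 10.72 and 10.26 in replicating and 6.28, 6.60 and 7.02 in quiescent β-cells. The groups did not overlap, and the ratio was largest in preparation 1 and smallest in preparation 3 (4.41, 4.12 and 3.24). The fitted ratio was 3.92 ± 0.373 (SE), or 15.2-fold (limma adjusted p = 0.12), and 4.57 with an offset of 16 or 4.80 with the processed signal. *Aspm*, known for its mutation in primary microcephaly, encodes a protein at the minus ends of microtubules that keeps the poles focused. Its log2 levels were 10.73, 10.32 and 10.51 in replicating and 6.56, 6.48 and 7.30 in quiescent β-cells. The groups were separate by 3.02, and the ratios of 4.18, 3.84 and 3.21 were in the same order of preparations as those of *Hmmr*. The fitted ratio was 3.74 ± 0.349 (SE), or 13.4-fold (limma adjusted p = 0.12).

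*Ckap2* encodes a protein that promotes microtubule growth on the spindle and is broken down as cells leave mitosis. Its brighter oligonucleotide had log2 levels of 12.04, 11.96 and 11.86 in replicating and 8.96, 9.41 and 7.36 in quiescent β-cells. The replicating arrays were nearly equal, and the quiescent array of preparation 3 was well below the others. The fitted ratio was 3.38 ± 0.471 (SE), or 10.4-fold, from 3.08, 2.55 and 4.50 in the preparations (limma adjusted p = 0.226). The dimmer oligonucleotide, with log2 levels of 11.50, 11.77 and 11.24 in replicating and 7.37, 7.40 and 7.19 in quiescent β-cells, did not show that split of the quiescent arrays. Its ratios of 4.14, 4.37 and 4.05 were close together, with a fitted ratio of 4.19 ± 0.307 (SE), or 18.2-fold (limma adjusted p = 0.0977). Both oligonucleotides were called higher.

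*Ckap2l* and *Ckap5* appear on the array under Ensembl transcript names, each with 1 oligonucleotide, and are not counted among the members. *Ckap2l*, a paralogue of *Ckap2* that also binds spindle microtubules, had log2 levels of 11.06, 10.59 and 11.04 in replicating and 9.22, 10.24 and 8.20 in quiescent β-cells. All replicating arrays were above all quiescent ones, but in preparation 2 by 0.35 only. Its fitted ratio was 1.68 ± 0.542 (SE), or 3.21-fold, and it was called higher (limma adjusted p = 0.475). *Ckap5*, which encodes a microtubule polymerase that is also used in cells that do not divide, had log2 levels of 8.12, 8.77 and 8.78 in replicating β-cells. In quiescent β-cells it had 7.08 and 8.97 in preparations 1 and 3, while the spot of preparation 2 was marked as an outlier and set to missing. The ratios of the remaining preparations were 1.04 and -0.20, and with a fitted ratio of 0.42 ± 0.511 (SE) it was not called (limma adjusted p = 0.704).

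**Figure D2:**
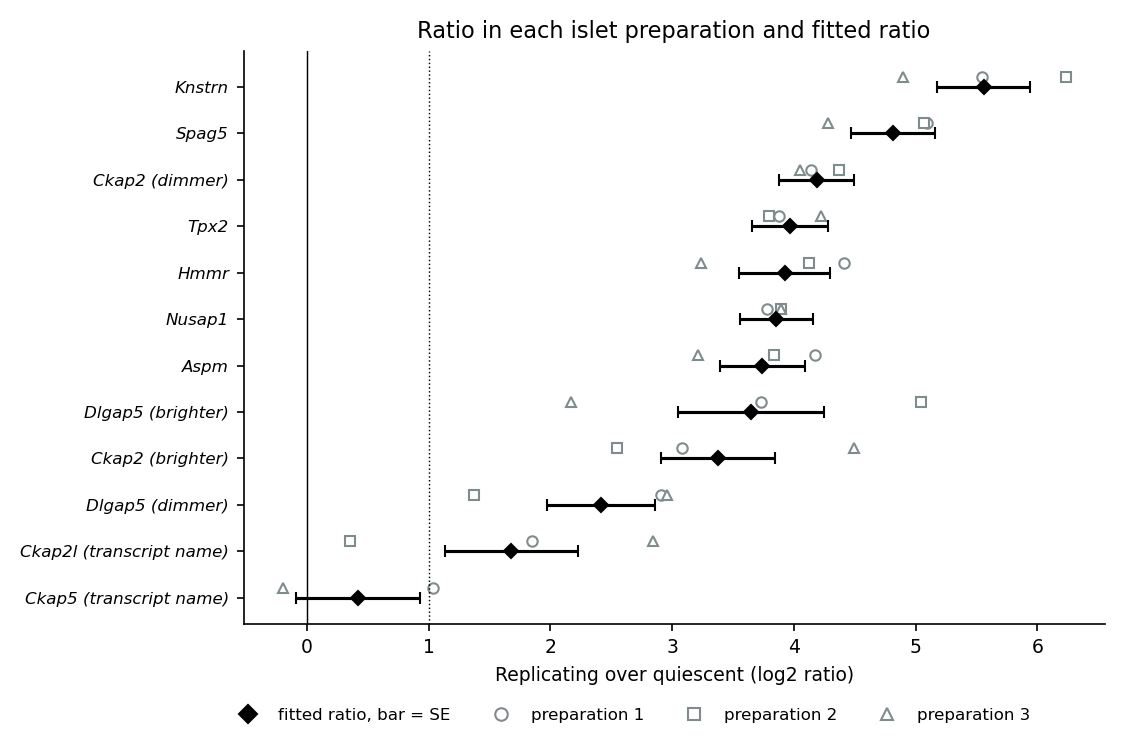
Log2 ratio of replicating over quiescent β-cells (x axis) for each oligonucleotide (y axis). Black diamonds with bars are the fitted ratio and its SE, open grey symbols the ratio within each islet preparation, and the dotted line the ratio of 1 used for a call. *Nusap1* and the dimmer *Ckap2* oligonucleotide have nearly equal ratios in the 3 preparations, the ratios of the brighter *Dlgap5* oligonucleotide run from 2.17 to 5.04, and *Ckap5* has values on both sides of 0.

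The median SD over the member genes was 0.205 in replicating and 0.41 in quiescent β-cells. Over all probes it was 0.216 and 0.639, likewise wider on the quiescent arrays. Spots of the same oligonucleotide, present 2 times for *Knstrn*, *Spag5*, *Nusap1* and *Aspm*, differed by at most 0.268 on any array. Over the 6 arrays, Pearson's r of a member with the mean of the other members was 0.9985 for *Spag5*, 0.9959 for *Knstrn*, 0.9944 for *Hmmr* and 0.9932 for *Aspm*. It was 0.9892 for *Nusap1*, 0.9887 for *Tpx2*, 0.9471 for *Dlgap5* and 0.8964 for *Ckap2*. These values describe 6 arrays in 2 groups and rest mainly on the step between the groups. In 8 of 28 pairs of member genes the ratios of the preparations did not overlap. *Knstrn* was the higher gene in 5 of these pairs and *Spag5* in 3, and the ratios of the other genes all overlapped each other. *Knstrn* had the highest ratio in each preparation, and the lowest was that of *Ckap2* in preparations 1 and 2 and of *Dlgap5* in preparation 3. These comparisons, and the r values, use the brighter oligonucleotide of *Ckap2* and of *Dlgap5*. With the dimmer, the ratios were 4.14, 4.37 and 4.05 for *Ckap2* and 2.91, 1.38 and 2.96 for *Dlgap5*, so the rank of *Ckap2* depends on the oligonucleotide. *Knstrn*, *Spag5*, *Ckap2*, *Nusap1* and *Tpx2* are on the list of most regulated genes that the study drew up from these same arrays, so their direction is not independent of that list. *Plk1*, *Prc1*, *Kif20b*, *Ube2t*, *Ect2* and *Ncaph*, named below, are on it too.

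Of the 24120 genes compared, the pattern of *Kif20b* over the 6 arrays was most like the mean of the members (Pearson's r 0.9994). It was followed by *Ube2t* (0.9991), *Ect2* (0.9982), *Mybl2* (0.9973) and *Ncaph* (0.9973). *Kif20b* encodes a kinesin of the spindle midzone. *Ube2t* encodes a ubiquitin-conjugating enzyme of DNA repair, *Mybl2* a transcription factor of cell cycle genes and *Ncaph* a subunit of condensin. Their fitted log2 ratios were 4.50 for *Kif20b*, 5.42 for *Ube2t*, 3.43 for *Mybl2* and 4.43 for *Ncaph*. The oligonucleotide of *Ect2* passed background on 1 of 3 quiescent arrays only, so no ratio is given for it.

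Other genes of spindle assembly included many that were called higher and many that were not. Of 44 such genes, 40 were found on the array by name. Of these 40 genes, 18 were called higher and 0 lower, against 4.44% of all probes called higher. The median log2 ratio of the 40 genes was 1.22, from -0.24 to 5.12. A ratio above 0 was found for 37 of the 40 genes, and for 20643 of all 45598 probes. The medians of the 40 genes in preparations 1, 2 and 3 were 1.19, 1.61 and 0.96. For 21 of the 40 genes all replicating arrays lay above all quiescent ones, which held for 8.82% of all probes. Without preparation 1, 9 of the 40 were called higher, against 518 of all 45598 probes in that fit.

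All 5 motors and crosslinkers of the spindle were called higher, with a median log2 ratio of 2.19. *Prc1*, which links antiparallel microtubules in the midzone, had a ratio of 3.94 ± 0.318 (SE; limma adjusted p = 0.0977), with 4.05, 3.63 and 4.15 in the preparations. *Kif15*, a kinesin that helps to keep the poles apart, had a ratio of 3.66 ± 0.449 (SE; limma adjusted p = 0.18). *Kif4a*, a chromosome-bound kinesin, had ratios of 3.23, -0.34 and 3.70, and its level of 10.80 on the quiescent array of preparation 2 was above those on the replicating arrays.

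Of the 6 genes around Aurora A and Plk1, 4 were called higher. *Plk1*, a kinase of mitotic entry and spindle assembly, had log2 levels of 13.08, 13.35 and 12.96 in replicating and 8.12, 7.14 and 8.78 in quiescent β-cells. The groups were well apart, with a fitted ratio of 5.12 ± 0.477 (SE; limma adjusted p = 0.12). *Aurka*, which encodes Aurora A, the kinase that Tpx2 activates, had a ratio of 3.50 ± 0.41 (SE; limma adjusted p = 0.173) with its brighter oligonucleotide and -0.27 with the other. *Bora*, which helps Aurora A to activate Plk1, had a ratio of 3.30 ± 0.462 (SE; limma adjusted p = 0.226). *Tacc3*, which works with Ckap5 on kinetochore fibres, was not called, with log2 levels of 12.13, 12.02 and 11.71 in replicating and 12.92, 13.18 and 10.48 in quiescent β-cells. It was thus lower in replicating β-cells of preparations 1 and 2 and higher in preparation 3, with a fitted ratio of -0.24 ± 0.552 (SE; limma adjusted p = 0.851), and its other oligonucleotide gave 0.97.

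In the Ran and importin group 3 of 7 genes were called higher, and 6 of the 7 had a ratio above 0. The remaining one, *Rangap1*, had -0.16 with its brighter oligonucleotide and 1.93 with the other. *Kpna2*, an importin that holds Tpx2 inactive until Ran releases it, had log2 levels of 13.33, 13.15 and 12.84 in replicating and 10.48, 8.38 and 11.02 in quiescent β-cells. The low quiescent array was that of preparation 2, and the fitted ratio was 3.14 ± 0.617 (SE; limma adjusted p = 0.468). Among genes of microtubule ends and dynamics, 2 of 6 were called higher. *Stmn1*, which encodes a protein that takes up tubulin dimers, had a ratio of 3.27 ± 0.386 (SE; limma adjusted p = 0.173), and *Kif18a*, a kinesin that dampens chromosome movements, 2.70 ± 0.349 (SE; limma adjusted p = 0.199). *Mapre1*, the plus-end protein Eb1 found in most cells, had a ratio of 0.95 ± 0.379 (SE; limma adjusted p = 0.475) and was not called.

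Nucleation and pole genes were the remaining groups. In the augmin and nucleation group 3 of 8 genes were called higher (median 1.13 on the log2 scale), and in the group of spindle poles and orientation 1 of 8 (median 0.45). *Wdr62*, a pole protein whose mutation causes microcephaly as that of *Aspm* does, had a ratio of 0.22 ± 0.398 (SE; limma adjusted p = 0.8), with -0.36, 1.03 and -0.01 in the preparations. Beside the counts of each spindle group stands the share of all probes called higher, 4.44%. Differences between the groups of genes were not tested.

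**Figure D3:**
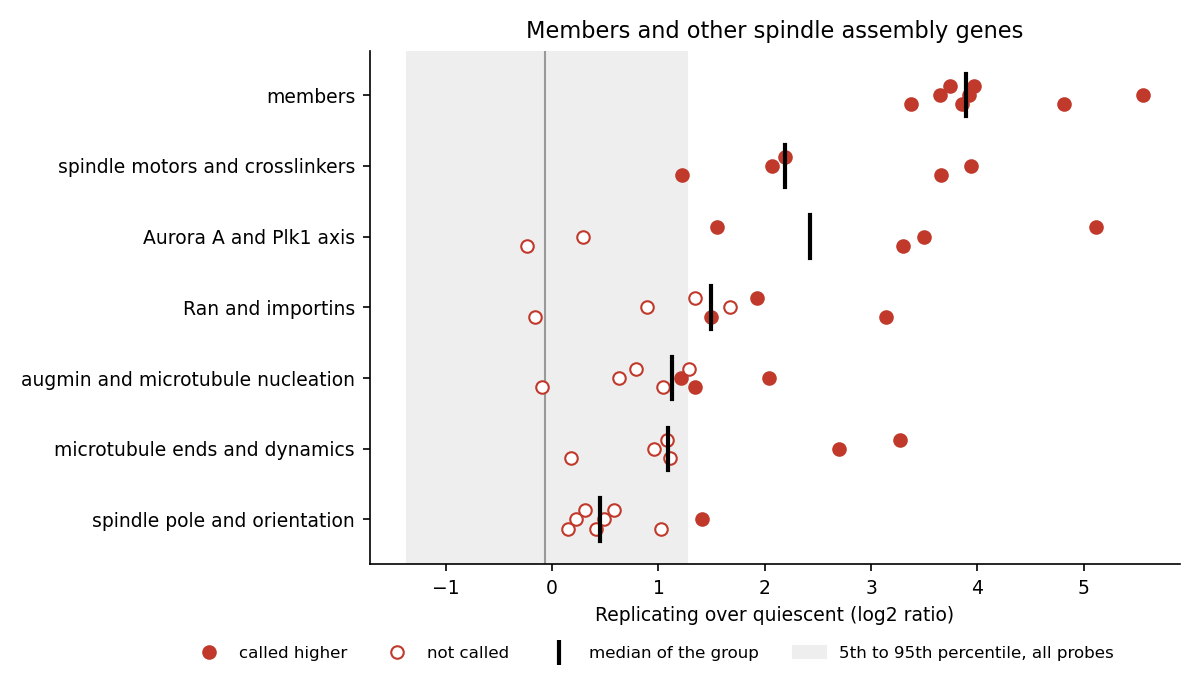
Fitted log2 ratio of replicating over quiescent β-cells (x axis) for each member gene and for 40 other spindle assembly genes in their groups (y axis). Filled circles were called higher, open circles were not called, black bars are group medians, and the grey band and line are the 5th to 95th percentile (-1.37 to 1.27) and the median of all probes. All 8 members lie to the right of the grey band, and most pole and orientation genes lie inside it.

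The labelled cell type was checked with marker lists. The summed log2 level of 8 beta cell markers was 17.83, 17.24 and 18.39 in quiescent and 17.98, 17.91 and 18.27 in replicating β-cells, all of them above background on every array. *Ins2*, the insulin gene, had a fitted ratio of 0.42 ± 0.341 (SE; limma adjusted p = 0.567) and was not called. By qPCR the study found insulin expression significantly lower in replicating β-cells. Its staining found nearly all cells of both fractions positive for insulin and c-peptide. Its qPCR did not detect amylase, *Krt20* or *Pecam1*, but *Amy2a3*, *Krt20* and *Pecam1* were above background on every array. It detected glucagon, somatostatin and pancreatic polypeptide in some samples, and more vimentin in the replicating fraction. On the arrays *Vim* was called higher, at 1.89 ± 0.455 (SE; limma adjusted p = 0.475). The differences between the study's results and the arrays were not tested. The sum of the beta cell list is carried by the insulin genes, and most other beta cell markers had ratios below 0. Of 9 on the array, 3 had a ratio above 0, 0 were called higher and 1 was called lower, with a median log2 ratio of -0.56. The one called lower was *Mafa*, a transcription factor of mature β-cells, at -1.01 ± 0.34 (SE; limma adjusted p = 0.475). *Pdx1* had a ratio of -0.76, *Slc2a2* -0.70, *Ucn3* -0.60 and *Nkx6-1* -0.56, the last without a value on the quiescent array of preparation 2, and none of these was called. The levels of 3 other lists moved with the members. The 8 fibroblast and stellate cell markers summed to 12.35, 12.59 and 12.09 in quiescent and 15.19, 13.61 and 15.01 in replicating β-cells, and 3 of the 8 were called higher. *Col3a1*, a fibrillar collagen, had a ratio of 3.04 ± 0.436 (SE; limma adjusted p = 0.24), and *Col1a1* one of 1.54 ± 0.642 (SE; limma adjusted p = 0.475) that was not called. The 6 alpha cell markers summed to 13.16, 12.45 and 14.10 in quiescent and 14.46, 15.60 and 16.47 in replicating β-cells, with 2 called higher. *Gcg*, the glucagon gene, had a ratio of 2.39 ± 0.462 (SE; limma adjusted p = 0.457). The 3 delta and PP cell markers summed to between 10.99 and 11.93 in quiescent and between 12.29 and 13.16 in replicating β-cells, with 2 called higher. The 6 acinar markers summed to 11.38, 15.02 and 14.61 in quiescent and 12.48, 15.93 and 14.86 in replicating β-cells. These sums were higher in each preparation, but the groups overlapped. The 1 acinar marker called higher was *Prss1*, at 1.56 ± 0.532 (SE; limma adjusted p = 0.475). The others were not called, with 0.69 for *Cel*, 0.24 for *Amy2a3*, 0.23 for *Cpa1*, -0.11 for *Pnlip* and -0.82 for *Cela1*. The *Pnlip* oligonucleotide passed background on 0 of 3 replicating arrays, so its ratio compares levels near the floor. Of the other lists, 2 of 6 immune, 1 of 5 duct and 0 of 6 endothelial markers were called higher. Of all 45598 probes, 2023 (4.44%) were called higher and 1905 lower. No list had a marker at background on all arrays. The fibroblast list differed least and the alpha cell list most in preparation 2. The part of these cell types in the ratios of the members was not tested.

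**Figure D4:**
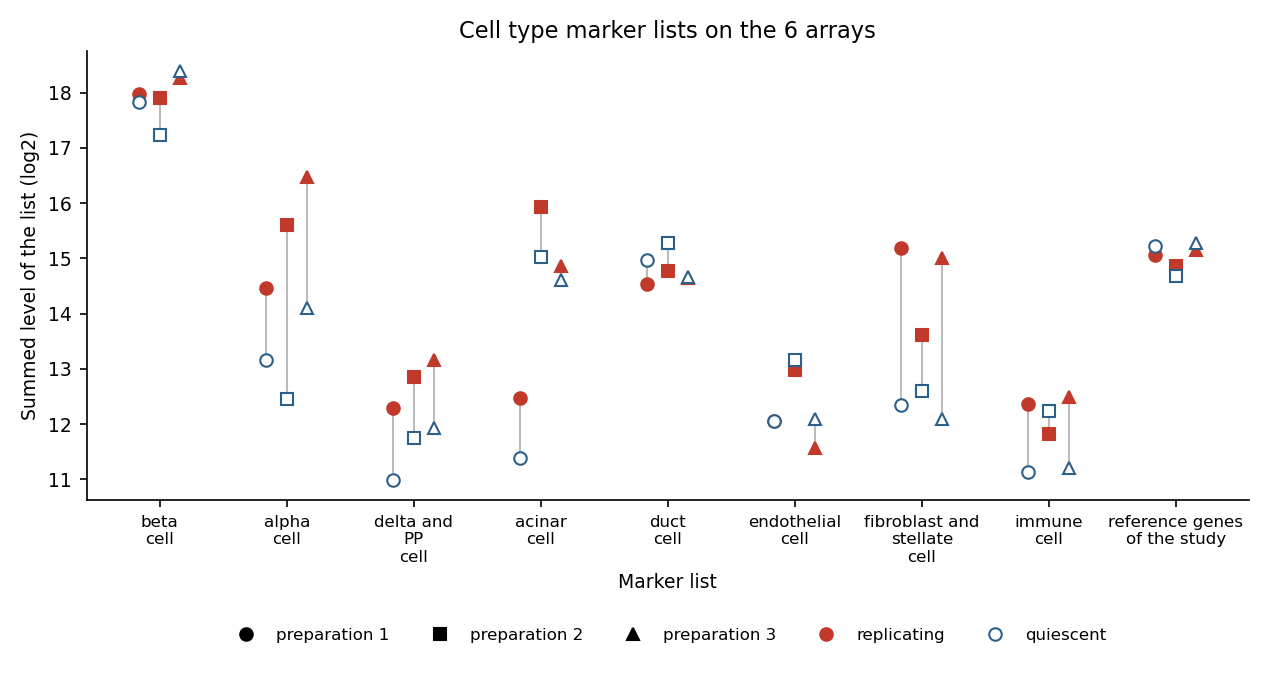
Summed log2 level (y axis) of each cell type marker list and of the 3 reference genes of the study (x axis) on the 6 arrays. Filled red symbols are replicating and open blue symbols quiescent β-cells, the shape gives the islet preparation, and a grey line joins the arrays of a preparation. The alpha, delta and PP, fibroblast and stellate, and acinar lists are higher in replicating β-cells of all 3 preparations. The beta cell list is higher in preparations 1 and 2 only. In the acinar list only *Prss1* was called higher.

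Upstream sequences of the members were searched for motifs of cell cycle promoters, as a description. The cell cycle genes homology region (CHR, searched as TTTGAA or TTCGAA) and the CCAAT box (CCAAT) are elements through which genes of G2 and M are known to be regulated. The 250 bases before the gene start were taken from RefSeq on the build GRCr8, for the 7 member genes with an entry, all but *Tpx2*, and read on both strands. TTCGAA reads the same on both strands, and a CHR and a CCAAT box may share an end base, which none did in the members. The CHR was found in 5 of the 7 (*Aspm*, *Ckap2*, *Hmmr*, *Knstrn* and *Spag5*), against 17.4% of 33469 promoters of the same length. The CCAAT box was found in 6 of the 7, all but *Knstrn*, against 34.0% of promoters. Both motifs were found in 4 of the 7, against 6.3%, and 4 of the 7 had 2 or more CCAAT boxes (4 in *Aspm* and *Hmmr*, 2 in *Nusap1* and *Spag5*), against 9.4%. *Dlgap5* and *Nusap1* had CCAAT boxes but no CHR in the window. For 5 of the 7 (*Dlgap5*, *Hmmr*, *Knstrn*, *Nusap1* and *Spag5*) RefSeq has the gene begin further upstream than the start used, so part of the window, or all of it in *Spag5*, lies inside the annotated gene. A match is no evidence that a factor binds.

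The windows of *Aspm* and *Ckap2* are shown because both motifs lie in them and their starts are the outer edges of the genes in RefSeq. They are 5′ to 3′ on the plus strand of GRCr8, and capitals mark the CHR (TTTGAA) and the CCAAT box as read on the other strand (ATTGG).
*Aspm*, chr13:53625334-53625583: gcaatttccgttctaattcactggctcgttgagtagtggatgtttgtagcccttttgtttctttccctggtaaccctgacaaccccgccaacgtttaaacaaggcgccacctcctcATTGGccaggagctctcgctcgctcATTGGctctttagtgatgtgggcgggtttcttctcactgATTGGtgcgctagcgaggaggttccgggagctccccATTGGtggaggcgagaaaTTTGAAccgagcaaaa
*Ckap2*, chr16:76541864-76542113: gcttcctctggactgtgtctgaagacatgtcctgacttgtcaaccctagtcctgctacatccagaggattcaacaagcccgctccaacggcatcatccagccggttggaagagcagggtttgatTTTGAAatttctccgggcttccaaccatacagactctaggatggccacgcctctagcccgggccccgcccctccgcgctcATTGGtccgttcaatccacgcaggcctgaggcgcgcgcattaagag
In *Aspm* the CHR ends 11 bases before the start and the nearest CCAAT box 30 bases before it. In *Ckap2* these distances were 121 and 42 bases.

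The last 30 bases before the start used, which is not the outer edge of either gene, are shown for *Spag5* and *Knstrn*, the members with the largest ratios, in the same way. Their CHR is on the minus strand (TTCAAA).
*Spag5*, chr10:63696806-63696835: CCAATccggaaacgcgtATTGGgTTCAAAt
*Knstrn*, chr3:126254666-126254695: cagggtggctcaatagctccaTTCAAAcca
In *Spag5* both CCAAT boxes and the CHR lie in these 30 bases, and in *Knstrn* the CHR ends 4 bases before the start. RefSeq places *Spag5* on the plus strand of GRCr8, whereas the array files put its oligonucleotide on the minus strand of rn4, and positions were not converted between the builds.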

How the data were processed

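The authors read the 6 one-colour Agilent arrays with Feature Extraction 10.7.3.1, and the array files place probes on rn4. They deposited the intensity of each spot without normalization, and also log2 values that had been corrected by normexp and then quantile normalized. The deposited log2 values were used, matched to spots by feature number. They differed by at most 0.000245 from values computed here from the intensity columns with normexp at an offset of 50, an addition that lessens the ratios of dim probes. The median was 8.318 on every array. The number of arrays limits the precision. No columns of other series were used.

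Control spots were left out, spots marked as outliers set to missing and spots of a probe averaged, which gave 45598 probes from 58717 spots. Where a gene had more than 1 probe, the one with the highest mean over all arrays stood for it. Groups and preparation numbers come from the sample titles. Files were read with the R package data.table, version 1.17.8. The package limma 3.58.1 (R 4.3.3) was fitted over all probes, blocked by islet preparation, since the methods of the study pair the samples and its design text gives each preparation 1 sample of each kind. As a check of the pairing, the deviations from the group mean correlated within pairs at 0.0561, 0.242 and 0.258, and between arrays of different preparations at -0.312 to 0.169, so that the pairing of preparation 1 rests on the design alone. The labelled replicates are separate islet preparations. p-values were adjusted by Benjamini-Hochberg over all probes. The fit was tested on simulated data.

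The members, the list of other spindle genes and the marker lists were chosen with earlier results of these data known. Named are all members, and the 5 genes most like them among probes well above background on at least 3 arrays. The 8 other spindle genes called with the largest ratios are named too. Named whatever they showed were *Aurka* and *Kpna2* (both among the 8), *Tacc3*, *Mapre1* and *Wdr62*. From the marker lists *Ins2*, *Gcg*, *Col1a1* and *Col3a1* were named. *Kif4a*, *Rangap1*, *Mafa*, *Pdx1*, *Slc2a2*, *Ucn3*, *Nkx6-1*, *Vim*, *Krt20*, *Pecam1* and the 6 acinar markers were chosen after their values were seen. Alternatives were an offset of 16, scaling to the 75th percentile of the normexp values or of the processed signal, outlier spots kept, a filter on dim probes, a variance trend, a model without the block, each gene's median over its probes, and each preparation left out. All arrays share a slide, so no slide block was fitted. Upstream windows are from RefSeq (GRCr8).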

Additional observations from a re-analysis of the deposited data

How the results depend on the processing

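All 8 members were called higher, with a log2 ratio above 0, under each of the 12 alternatives run. The log2 values computed here, outlier spots kept and the filter on dim probes left every member ratio unchanged. So did the variance trend and the model without the block. These alternatives therefore do not test the size of the ratios, and the median over probes could change only *Ckap2* and *Dlgap5*. The member median of 3.89 became 4.40 with an offset of 16, 3.68 with scaling to the 75th percentile, 4.50 with the processed signal, and between 3.79 and 4.14 with a preparation left out. These scalings moved the median of all probes from -0.07 to -0.39 (75th percentile) and -0.71 (processed signal), and of the probes called 51.5% were higher before, 21.4% and 17.2% after. The number of probes called was 3928, and 7458 with scaling to the 75th percentile. It was 581, 2260 and 10745 without preparation 1, 2 or 3, of which 89.2%, 64% and 47.6% were higher. Other spindle genes called higher numbered 18, and between 9 (without preparation 1) and 21 (without preparation 3) with a preparation left out. Without the replicate block, 8 members and 2757 probes were called. An adjusted p under 0.05 was reached by 0 members and 0 probes in the reported fit, by 8 and 719 with scaling to the 75th percentile, by 6 and 99 without the block, by 5 and 61 with a variance trend, by 7 and 84 without preparation 2, and by 0 under each other alternative. With the median over probes of a gene, *Dlgap5* had the lowest ratio (3.03). The causes of these differences were not tested. Depth is not defined for arrays, and all member spots were well above background.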
